A study of Homo sapiens with 36 samples.

Results

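A set of 546 genomic sites was chosen because called GATA2 peaks there followed the wild-type protein more often than a zinc finger mutant. Each site had a CUT&Tag peak with an antibody against GATA2 in at most 2 of 4 libraries of GATA2-low cells given HA-GATA2(T354M), in at least 3 of 4 libraries of GATA2-low cells given HA-GATA2, in 0 of 4 libraries of GATA2-low cells given an empty vector, and in 4 of 4 libraries of wild-type cells given the empty vector. The 546 members are 35.8% of the 1524 sites lost in GATA2-low cells and 3.16% of the 17277 sites that the merged peaks of 28 libraries form. Of the other lost sites, 542 had a peak in at least 3 libraries of both proteins, and 436 were not returned by HA-GATA2. The anti-GATA2 libraries chose the members, so their values below are a description, and the 12 anti-HA libraries are the measurement that the choice did not use.

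The cells were HUDEP-2, an established human erythroid progenitor line, and CUT&Tag finds a protein on chromatin by way of an antibody that brings a transposase to cut and tag the DNA beside it. The GATA2-low cells carry the genotype label GATA2+/-, and every cell had received a lentivirus and had been sorted for GFP. In the GATA2-low cells an antibody against the HA tag was also used after HA-GATA2(T354M) (written HA-T354M below), HA-GATA2 or the empty vector, which carries no tag. Each of the 7 groups had 4 libraries. The anti-GATA2 antibody also sees the GATA2 that GATA2-low cells still make. Nothing in the labels says that the libraries of a group came from separate cultures, so the tests cover the spread between these libraries, and the first GATA2-low empty-vector library with anti-GATA2 has a genotype label that reads wild-type, where its title reads GATA2-low and was followed.

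GATA2, needed by haematopoietic stem cells and early progenitors, binds WGATAR elements in DNA through its zinc fingers and gives way to GATA1 at many of them as erythroid cells mature. Its C-terminal zinc finger, where the mutated threonine lies, makes most of the contacts with DNA, and germline mutations there are known in inherited GATA2 deficiency with predisposition to myeloid neoplasia. LDB1 and TAL1 are known partners of GATA factors at erythroid enhancers.

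The sequences at hand cover the starts of genes, 250 bases before to 50 after each, from RefSeq on GRCh38.p14. Of the 546 members, 107 overlapped a start window, 167 windows of 142 genes in all. A GATA element (AGATAA, the form AGATAG, the form TGATAA or the form TGATAG, on either strand) stood in 58 of these windows (34.7%), against 32 of 135 windows at sites returned by both proteins (23.7%), 343 of 1247 at sites with a peak in 4 of 4 wild-type libraries (27.5%) and 8769 of all 35116 windows (25%). At sites with a peak in all 16 anti-GATA2 libraries the share was 43.7%. These shares are descriptions, since windows of 1 gene overlap. In 45 members with an element in a start window, the nearest one lay a median of 59.5 bp from the wild-type summit, and in 26 of them within 100 bp.

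To show what stands under these peaks, 8 members with an element 2 to 22 bp from the wild-type summit are printed. The element at ATG4C lay 10 bp from it, nearer than those of SMAD3 and CYP17A1. It is not printed, as its start window holds fewer than 12 bases before the element. The site at RPL35 tied with CYP17A1 at 22 bp and is not printed either. The 8 were picked on that distance after it was known. Each line gives 30 bases, 5′ to 3′ on the strand of the gene, and capitals mark the element nearest the summit (other matches stay in lower case).
TNIK, chr3:171460460-171460489, minus strand: cccaggaagcggTGATAGacagttctgcgt
JUP, chr17:41786807-41786836, minus strand: gacagtcaggcgAGATAGccagtgagctcg
CAPN1, chr11:65181780-65181809, plus strand: accgtgagtaagAGATAGtcagagaccgtg
PLTP, chr20:45910979-45911008, minus strand: atggggccgaaaAGATAAaggccaagccag
STAT6, chr12:57110438-57110467, minus strand: agataggggttgAGATAAgcgagtttaggc
NSUN6, chr10:18651571-18651600, minus strand: gtgtttggaaatTGATAGaaaagataaagg
SMAD3, chr15:67098488-67098517, plus strand: gaagaaaaaggcCTATCTcaacatagcagg
CYP17A1, chr10:102837465-102837494, minus strand: ccacaaggcaagAGATAAcacaaagtcaag

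Anti-HA peaks at these 8 members were few. The CAPN1 site, in the start region of a calcium-dependent protease gene, had a peak with HA-T354M in 0 and with HA-GATA2 in 3 of 4 anti-HA libraries, with 27, 29 and 26 fragments at the summit in replicates 1 to 3 and no peak in replicate 4. STAT6, NSUN6, SMAD3 and CYP17A1 had 1 such HA-GATA2 library each, and TNIK, JUP and PLTP had none. Of the sites left out, ATG4C had 2 and RPL35 had 0. An element at the summit therefore stood at members with and without an anti-HA peak.

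A whole start window of COPB2, a gene for a COPI coat subunit of Golgi transport vesicles, is printed for 2 reasons. Its site had an anti-HA peak in all 4 HA-GATA2 and 0 HA-T354M libraries, and the window holds an element. The sites at BCAT1 and UBXN10 had the same anti-HA counts, but their start windows hold 0 elements. Capitals mark the only match to the 4 letter strings on either strand.
COPB2, chr3:139389631-139389930, minus strand: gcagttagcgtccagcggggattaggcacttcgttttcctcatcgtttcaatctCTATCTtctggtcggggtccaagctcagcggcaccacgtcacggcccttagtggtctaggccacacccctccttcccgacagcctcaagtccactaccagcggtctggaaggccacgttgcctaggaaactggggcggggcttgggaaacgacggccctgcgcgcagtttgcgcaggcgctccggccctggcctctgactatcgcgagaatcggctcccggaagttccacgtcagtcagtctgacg
The site spans chr3:139389501-139390327, and the element lies 56 bp from the wild-type summit. With HA-T354M the site had anti-GATA2 peaks of 37 and 43 fragments in replicates 1 and 3 and none in replicates 2 and 4. With HA-GATA2 the anti-GATA2 peaks held 52, 56, 59 and 57 fragments, and in wild-type cells 22, 26, 30 and 29. The anti-HA libraries showed no peak with HA-T354M and 18, 21, 23 and 16 fragments with HA-GATA2. The other start windows that the naming rule gives belong to CAPN1-AS1, at the CAPN1 site, and to DCLRE1B and HECTD3, whose nearest elements lie 460 and 922 bp from the wild-type summit. Fragment numbers are not scaled for depth, so they compare sites within a library, not groups.

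Libraries differed in depth and in the length of their peak lists. The anti-GATA2 lists held 2779 to 6311 peaks with HA-T354M, 7064 to 12171 with HA-GATA2, 1823 to 3648 with the empty vector in GATA2-low cells and 6555 to 9121 in wild-type cells. The caller had scaled the fragments of the HA-T354M and HA-GATA2 anti-GATA2 libraries by 0.50023 to 0.70589, and the lowest fold in these lists was 1.995 to 2.209. It had not scaled the GATA2-low empty-vector and wild-type libraries, whose lowest fold was 1.093 to 1.487. The lists that define a lost and a returned site were therefore not called alike, and the part of this in the choice of members was not tested. Relative depth, estimated as the 5th percentile of the background at peaks in fragments, was 0.479 ± 0.0735, 0.431 ± 0.00309, 0.174 ± 0.0269 and 0.265 ± 0.0372 in that order (SD, n = 4 each). The anti-HA lists held 426 to 744 peaks with HA-T354M, 1912 to 6065 with HA-GATA2 and 1 to 6 with the empty vector, at estimated depths of 0.374 ± 0.0251 and 0.403 ± 0.0261 for the tagged proteins (SD, n = 4 each), while the empty-vector lists were too short for an estimate. Less occupancy and fewer peaks called from the same occupancy cannot be told apart in a single list. When every anti-GATA2 list was cut to the strongest 1823 peaks and every anti-HA list to 426, only 9 sites met the rule, and 2 of the 546 members were among them. The cut shortened the wild-type lists as well, where the members had a median percentile of 42.8. Few members could therefore keep 4 of 4 wild-type peaks, whatever the lists of either protein held. The fall thus does not compare HA-GATA2 with HA-T354M at these members.

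Among the 546 members, 379 (69.4%) still had an anti-GATA2 peak in 1 or 2 HA-T354M libraries, and 167 had none. With HA-T354M 18.5%, 1.65%, 36.8% and 49.6% of the members had a peak in replicates 1 to 4 (26.6% ± 21, SD, n = 4). With HA-GATA2 the shares were 71.1%, 98.7%, 99.5% and 97.8% (91.8% ± 13.8). Replicate 2 of HA-T354M and replicate 1 of HA-GATA2 were the low libraries of their groups. Replicate 2 of HA-T354M had the highest estimated depth of its group, 0.587. With that library left out and the limit tightened to 1 of the remaining 3 HA-T354M libraries, 352 sites met the rule, close to the 343 members with a peak in at most 1 of all 4.

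**Figure D1:**
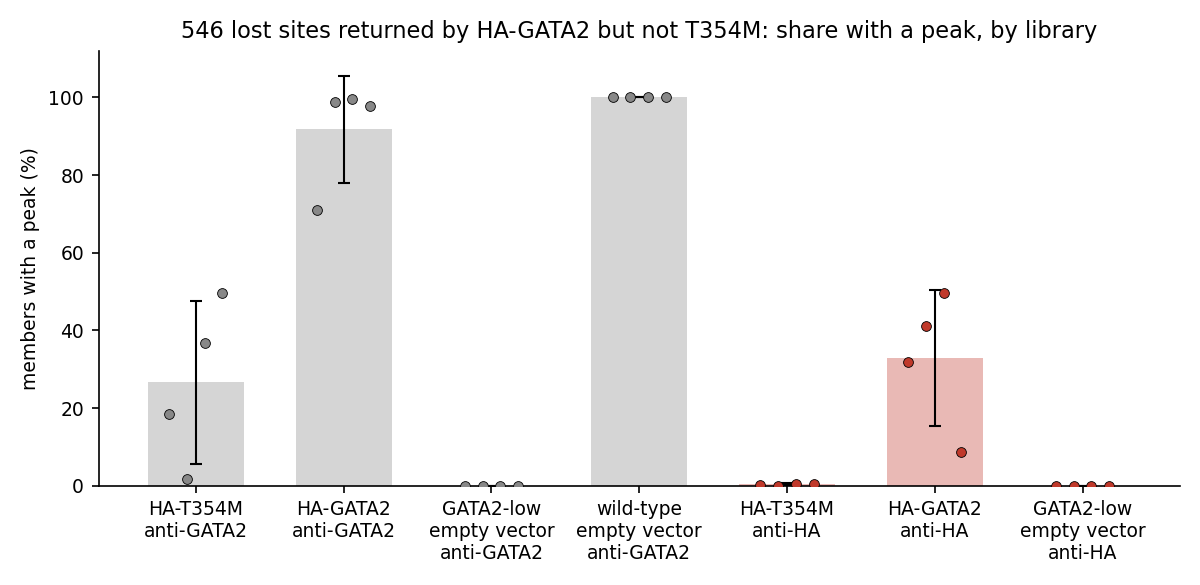
Share of the 546 members with a peak (%, vertical axis) in each library of the 7 groups (horizontal axis). Points are libraries, replicates 1 to 4 left to right, and bars with error bars are mean ± SD. The 4 anti-GATA2 groups chose the members, while the anti-HA points were not used for that: 0% to 0.549% with HA-T354M, 8.79% to 49.5% with HA-GATA2 and 0% with the empty vector.

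Where HA-T354M peaks were called at members they were small ones. This is a description, since the rule kept only sites that lacked such a peak in at least 2 of 4 libraries. The median member peak held 29, 27, 33 and 32 fragments in the 4 HA-T354M anti-GATA2 libraries, against 44, 58, 46 and 43 over all peaks of the same libraries. With HA-GATA2 the medians at members were 38, 49, 50 and 49 fragments, against 43 to 45 over all peaks. In wild-type cells they were 23, 24, 27 and 25, against 27 to 30. Their median percentile in the HA-T354M anti-GATA2 lists was 21.8 over the 379 members with a peak, where 100 is the strongest peak by −log10 q, and 42.2 in the HA-GATA2 lists.

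Most peaks in cells given either protein had summits close to the wild-type one. A peak counts only where it overlaps the site, so part of this closeness follows from how sites were formed. The anti-GATA2 summits with HA-T354M lay a median of 21 bp from the wild-type summit (379 members, 93.4% within 100 bp). Those with HA-GATA2 lay 18 bp from it (546 members, 93% within 100 bp). These anti-GATA2 peaks need not be of the returned protein, since the antibody also sees the remaining GATA2. With the anti-HA antibody the HA-GATA2 summits lay a median of 31.8 bp away (334 members, 85% within 100 bp). The 7 HA-T354M anti-HA summits lay a median of 97.5 bp away, with 57.1% within 100 bp.

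In wild-type cells the members were middle-ranking peaks. Their median percentile in the wild-type lists was 42.8, against 53.9 for lost sites returned by both proteins, 30.6 for lost sites not returned by HA-GATA2 and 65.9 for all 4806 sites with a peak in 4 of 4 wild-type libraries. Members had a median width of 560.5 bp, against 649.5, 465.5 and 690 bp in the same order. The members ranked between the other lost classes in both measures, which is a description, since the wild-type libraries entered the choice.

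Of the members, 134 (24.5%) lay within 1000 bp of either end of a protein-coding gene, 209 (38.3%) inside a gene and 203 (37.2%) outside. Gene ends held 18.1% of the sites returned by both proteins, 51.4% of those not returned and 19% of all sites with 4 of 4 wild-type peaks. Within 10 kb of a site with a peak in all 16 anti-GATA2 libraries lay 7.69% of the members and 7.55% of all sites with 4 of 4 wild-type peaks, shares that lie close together. For every 100 sites with 4 of 4 wild-type peaks there were 6.32 members on chromosome 19, the fewest, and 20.7 on chromosome X (28 members), the most.

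**Figure D2:**
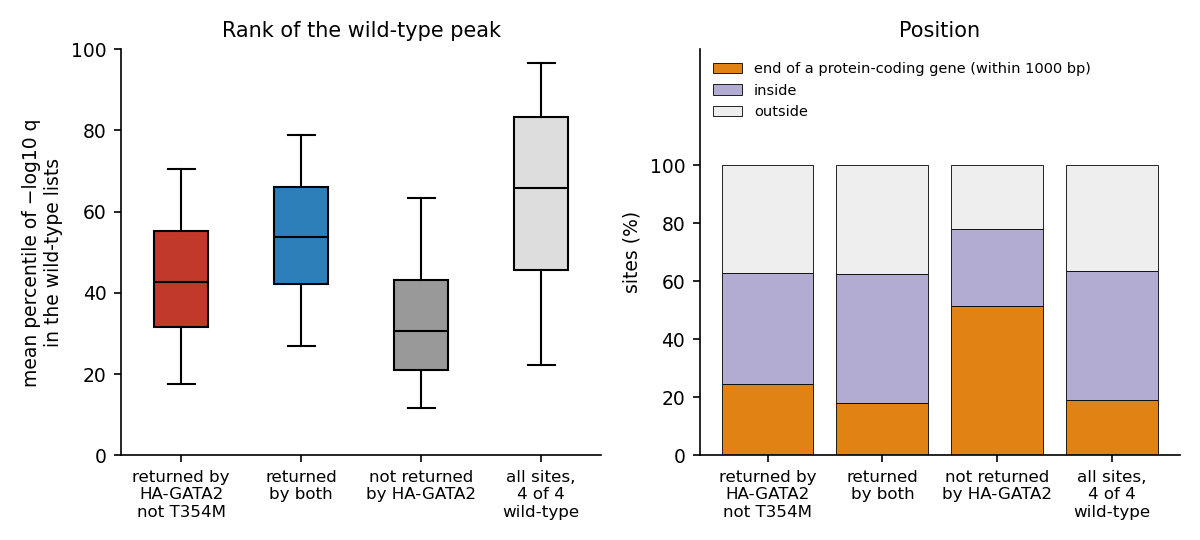
Left, mean percentile of −log10 q in the 4 wild-type lists (vertical axis, 100 is the strongest peak) for the members, the other 2 classes of lost sites and all sites with a peak in 4 of 4 wild-type libraries. Boxes are quartiles with the median and whiskers run from the 5th to the 95th percentile; medians are 42.8, 53.9, 30.6 and 65.9. Right, share of each class (%) at a gene end, inside and outside protein-coding genes; 24.5% of the members are at a gene end.

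The anti-HA libraries ask whether the tagged proteins themselves were seen at the members. With HA-T354M the members with an anti-HA peak numbered 1, 0, 3 and 3 in replicates 1 to 4, or 0.321% ± 0.275 (SD, n = 4). With HA-GATA2 they numbered 174, 224, 270 and 48, or 31.9%, 41%, 49.5% and 8.79% (32.8% ± 17.5). With the empty vector there were none in any library. The HA-T354M and HA-GATA2 libraries did not overlap, and HA-GATA2 replicate 4 was the lowest of its group. Over all 17277 sites these groups did not overlap either, with 2.44% to 4.28% (mean 3.41%) for HA-T354M and 11% to 34.7% (mean 24.3%) for HA-GATA2, so the separation is not particular to the members. The difference, HA-GATA2 minus HA-T354M, was 32.5 percentage points, from 26.9 to 40.5 when any single library was left out.

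Both proteins had fewer anti-HA peaks at members than at lost sites returned by both. At sites returned by both, HA-T354M had peaks at 5.44% ± 2.99 and HA-GATA2 at 54.9% ± 18.9 of the sites. At sites not returned by HA-GATA2 the shares were 1.78% ± 0.824 and 10.6% ± 7.76, and over all sites with 4 of 4 wild-type peaks 11.4% ± 3.1 and 56.5% ± 16.8 (SD, n = 4 libraries throughout). The HA-T354M share was lower at members than at each of these classes in every one of the 4 libraries, as a description with no test.

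Site by site, 36 members (6.59%) were called, with anti-HA peaks for HA-T354M in 0 of 4 libraries and for HA-GATA2 in 4 of 4 (adjusted p = 0.0321, Fisher's exact test, two-sided, Benjamini-Hochberg adjustment over the 1059 sites that could pass). Only 39 members could pass, and of all 1059 such sites 942 were called higher with HA-GATA2 and 0 lower. Over all sites the same test called 5.45%, and over sites with 4 of 4 wild-type peaks 15.2%, so the members' share was near the first and below the second. At lost sites returned by both proteins it called 17.3%. Adjusted over the 6944 sites with an anti-HA peak in either group, the smallest adjusted p was 0.211 and 0 members were called. The call also ended, with 0 members called, when any HA-T354M anti-HA library was left out. The adjustment then ran over sites with a peak in 3 or in 4 libraries. Without an HA-GATA2 anti-HA library a call needed 3 of 3 such libraries. This gave 41, 38 and 37 members without replicates 1 to 3 in turn. Without replicate 4 it gave 118 members (21.6%) and 13.5% of all sites. With HA-T354M anti-GATA2 replicate 1 or 2 left out and the limit for members tightened to 1 of 3, 20 and 14 were called. At the limit of 2 no member leaves the set when such a library is dropped.

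Against the empty vector, 0 members could pass the same test with HA-T354M, as none had an anti-HA peak in more than 1 library. The 0 called members, and 0 at an unadjusted p under 0.05, were thus fixed in advance. The test called 1.39% of all sites and 4.91% of sites with 4 of 4 wild-type peaks. By the same exact test HA-GATA2 had 38 called members (6.96%, adjusted p = 0.0286), where 10.1% of all sites and 31.4% of sites with 4 of 4 wild-type peaks were called. These 38 were all the members that could pass, and 1753 of 1754 such sites were called, with 1 to 6 peaks in the empty-vector lists. Over the sites with a peak in any library of the comparison, the smallest adjusted p values were 0.128 for HA-T354M and 0.113 for HA-GATA2, and 0 members were called in either. The HA-GATA2 calls also ended when any empty-vector anti-HA library was left out, although 0 members had a peak in any of these. The adjustment had then changed to sites with a peak in 3 or in 4 libraries. Without HA-GATA2 replicate 4, when 3 of 3 such libraries were enough, the calls numbered 123. They numbered 22 and 16 without HA-T354M anti-GATA2 replicate 1 or 2 under the tightened limit of 1 of 3.

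By number of HA-GATA2 anti-HA libraries, 212 members had a peak in none, 121 in 1, 82 in 2, 93 in 3 and 38 in 4, so 334 (61.2%) had at least 1. An HA-T354M anti-HA peak was present at 7 members (1.28%), in 1 library each. This count was 3 without HA-GATA2 anti-GATA2 replicate 3, and 4 without replicate 2 or 4 of that group or without HA-T354M anti-HA replicate 3 or 4, and 3 and 2 at a −log10 q of at least 10 and 15. At its highest it was 10, without GATA2-low empty-vector anti-GATA2 replicate 4. Among sites with an anti-HA peak in all 4 HA-GATA2 libraries, at least 1 HA-T354M library had a peak at 2 of 38 members (5.26%), 49 of 143 sites returned by both proteins (34.3%) and 544 of 843 sites with a peak in all 16 anti-GATA2 libraries (64.5%). Of the lost sites not returned by HA-GATA2, 2 had all 4 such libraries, and 1 of them an HA-T354M peak. These are counts with no test, and the classes differed in the strength of their HA-GATA2 anti-HA peaks, with median percentiles of 28.9 at members, 48.1 at sites returned by both and 74.5 at sites with a peak in all 16 libraries, over the sites with such a peak.

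**Figure D3:**
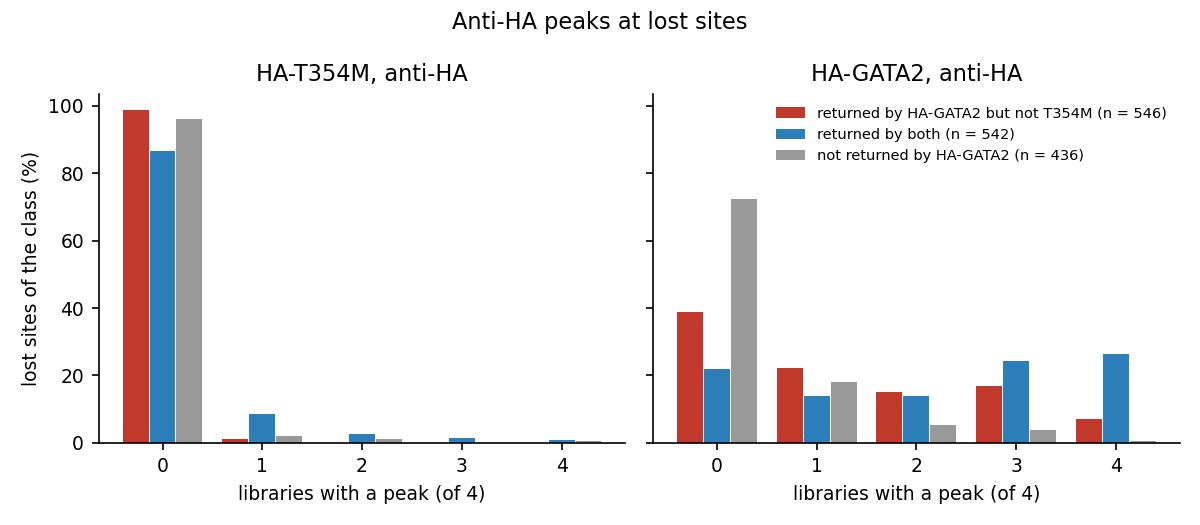
Share of each class of lost sites (%, vertical axis) by number of anti-HA libraries with a peak (0 to 4, horizontal axis), with HA-T354M on the left and HA-GATA2 on the right. With HA-T354M 98.7% of the members and 86.5% of the sites returned by both proteins are at 0; with HA-GATA2 the shares at 4 are 6.96% and 26.4%.

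The edge of the rule was gradual with HA-GATA2 and steeper with HA-T354M. Lost sites with at least 3 HA-GATA2 libraries had an HA-T354M anti-GATA2 peak in 0 to 4 libraries at 167, 176, 203, 288 and 254 sites. In that order, an anti-HA peak with HA-T354M was present at 0.599%, 2.27%, 0.985%, 6.94% and 20.9% of them. With HA-GATA2 the shares were 52.7%, 59.1%, 70%, 66.7% and 91.3%. The members just inside the rule (2 libraries) and the sites just outside it (3 libraries) had nearly the same HA-GATA2 share, 70% and 66.7%, and the same rank in wild-type cells, with median percentiles of 47.6 and 47.3. Their HA-T354M anti-HA peaks numbered 2 of 203 and 20 of 288.

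**Figure D4:**
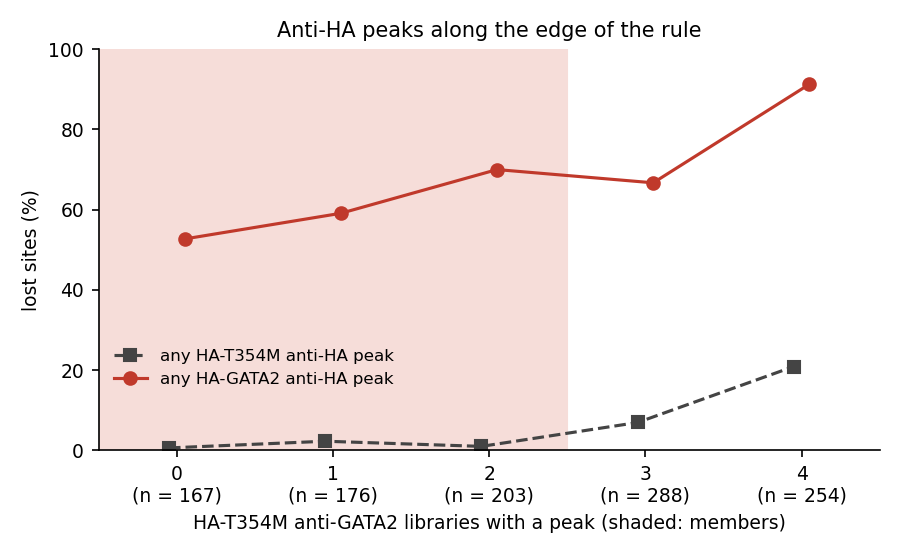
Share of lost sites (%, vertical axis) with an anti-HA peak in any of 4 libraries, by number of HA-T354M anti-GATA2 libraries with a peak (horizontal axis), among lost sites with at least 3 HA-GATA2 anti-GATA2 libraries. Squares are HA-T354M (0.599% to 20.9%), circles HA-GATA2 (52.7% to 91.3%), and the shading marks the members.

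Along the other edge, lost sites with at most 2 HA-T354M libraries had an HA-GATA2 anti-GATA2 peak in 0 to 4 libraries at 153, 99, 128, 180 and 366 sites. An HA-GATA2 anti-HA peak stood at 24.2%, 28.3%, 32%, 42.2% and 70.5% of them. Members that HA-GATA2 returned in 3 libraries were thus nearer to the sites left out, at 32%, than to the members it returned in 4.

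The 10 members with the most HA-GATA2 over HA-T354M anti-HA libraries, ordered by percentile in the HA-GATA2 anti-HA lists, all had 0 HA-T354M and 4 HA-GATA2 libraries. They lie inside SEL1L3, ACP3, KDM4C, ABLIM1, JMJD1C, FBN1 and SGMS1, and outside but nearest to HSD17B6, SMIM31 and CDH8. KDM4C is a histone H3 lysine 9 demethylase, JMJD1C belongs to the same Jumonji family, ABLIM1 binds actin, FBN1 encodes fibrillin and SGMS1 makes sphingomyelin. The nearest gene is a position and no assigned target: the site nearest to CDH8, a cadherin gene, lies 1368564 bp from it.

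The ACP3 site, in an acid phosphatase gene (chr3:132351545-132352130), had HA-T354M anti-GATA2 peaks of 33 and 41 fragments in replicates 3 and 4 and none in the others. With HA-GATA2 it had 87, 123, 139 and 113 fragments with anti-GATA2, and wild-type cells had 21, 21, 32 and 33. The anti-HA peaks held 42, 66, 52 and 31 fragments with HA-GATA2. It was among the strong peaks of the HA-GATA2 lists (percentiles 82.1 with anti-GATA2 and 78.6 with anti-HA) but not of the wild-type lists (30.2).

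The ABLIM1 site (chr10:114661339-114662026) had no HA-T354M peak with either antibody. With HA-GATA2 it had 50, 111, 107 and 91 fragments with anti-GATA2 and 37, 39, 34 and 15 with anti-HA, and wild-type cells had 21, 14, 34 and 26. The site nearest to SMIM31 (chr4:164616729-164617348) also had no HA-T354M peak, with 46, 73, 71 and 59 anti-GATA2 fragments and 28, 35, 35 and 18 anti-HA fragments with HA-GATA2, against 23, 23, 23 and 33 in wild-type cells. The remaining 8 of the 10 had an HA-T354M anti-GATA2 peak in 1 or 2 libraries.

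**Figure D5:**
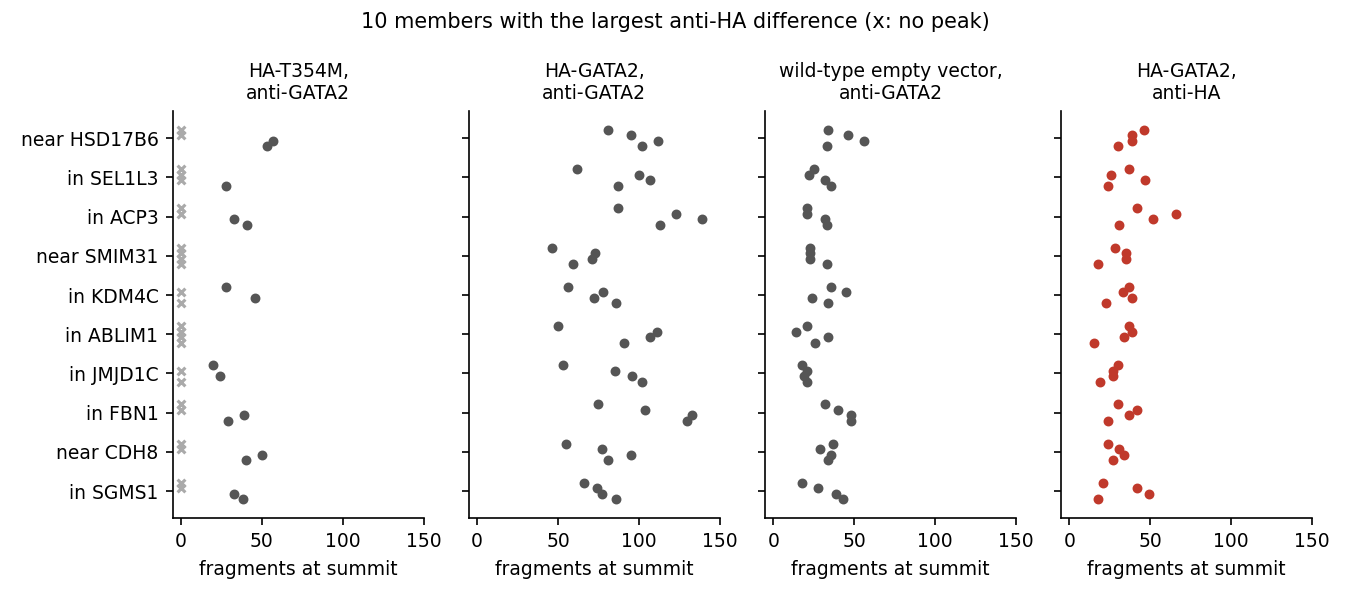
Fragments at the summit (horizontal axis) at the 10 members with the largest anti-HA difference, named by the gene they lie in or nearest to. Points are libraries, replicates 1 to 4 from top to bottom, and crosses mark libraries without a peak. HA-T354M anti-GATA2 has at most 2 points a site, while HA-GATA2 reaches 139 fragments with anti-GATA2 and 66 with anti-HA, both at ACP3.

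The 10 members ranking highest in wild-type cells, at percentiles of 76.7 to 92.4, lay in or nearest to ADGRL3, CNTNAP5, MAOA, TRIM38, PCDH9, THRB, ZNF773, CRACDL, HSD17B6 and CYP17A1. The first of them, 164441 bp from ADGRL3, an adhesion G protein-coupled receptor gene (chr4:62242405-62243147), had 1 HA-T354M anti-GATA2 peak of 27 fragments. With HA-GATA2 it had 59, 100, 98 and 92 fragments, and in wild-type cells 70, 67, 86 and 77. Its anti-HA peaks held 29, 28 and 32 fragments in HA-GATA2 replicates 1 to 3. None of the 10 had an HA-T354M anti-HA peak, and all had an HA-GATA2 one in 1 to 4 libraries. Even the strongest wild-type peaks of the set thus varied in how many anti-HA libraries saw HA-GATA2.

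Members with an HA-T354M anti-HA peak lay in or nearest to H2AC12, HSPA5, H3C12, SERINC5, GRHL2 and BCKDHA. The HSPA5 site (chr9:125241310-125241839) covers the start of the gene for the chaperone BiP, with its midpoint 232 bp outside the gene. It had 21 anti-HA fragments in HA-T354M replicate 4 and 25, 18, 27 and 20 in the 4 HA-GATA2 libraries. The BCKDHA site had 29 fragments in HA-T354M replicate 1, and 25 and 26 in HA-GATA2 replicates 1 and 3. H2AC12 and H3C12 are histone genes, and 8 members in all lay in or nearest to a histone gene, counted after these names were seen. The share over all sites is not given here, so the count has no background to stand against. At all of these named members HA-GATA2 had an anti-HA peak in 2 to 4 libraries.

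Genes of blood and control lists were counted by a member in the gene or within 10 kb, which 532 of 19974 protein-coding genes had (2.66%). Of 19 genes of GATA2 complexes and core targets 3 had a member, LDB1, GFI1B and TAL1. LDB1, the adaptor that joins GATA factor complexes, held a member (chr10:102112370-102112814) with HA-T354M anti-GATA2 peaks of 39 and 51 fragments in replicates 1 and 3. With HA-GATA2 it had 65, 63, 66 and 77 anti-GATA2 fragments, and 26, 27 and 27 anti-HA fragments in replicates 1 to 3, and wild-type cells had 51, 48, 37 and 35. It had no HA-T354M anti-HA peak. At GFI1B, a transcriptional repressor that acts in the red cell and platelet lineages, HA-GATA2 had an anti-HA peak in 1 library, and at TAL1 in none. TAL1 and GFI1B each had 4 sites with 4 of 4 wild-type peaks, so the member was 1 of several.

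Of 27 genes of globin and heme synthesis 5 (18.5%) had a member, ALAS2, UROD, CPOX, FECH and BLVRB, and 0 had a site returned by both proteins, which 2.5% of all protein-coding genes had. The list is rich in sites, as 55.6% of its genes had a site with 4 of 4 wild-type peaks, against 17% of all protein-coding genes. The counts of genes with a site returned by both were 3 of 19 in the list of GATA2 complexes and core targets, 3 of 26 in the mast cell list and 2 of 24 in the housekeeping list. ALAS2, UROD, CPOX and FECH encode enzymes of the heme pathway, and BLVRB a biliverdin reductase. CPOX, coproporphyrinogen oxidase, held a member inside the gene (chr3:98574083-98574722) with HA-T354M anti-GATA2 peaks of 25 and 25 fragments in replicates 3 and 4. With HA-GATA2 it had 51, 59, 78 and 69 fragments, and 16, 19 and 22 with anti-HA in replicates 1 to 3, and wild-type cells had 19, 18, 27 and 23.

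The member at UROD, uroporphyrinogen decarboxylase (chr1:45011181-45013085), covers the start of the gene. Its midpoint lies 121 bp outside the gene, and its wild-type summit 208 bp past the gene start. The site also covers a start window of HECTD3. It had HA-T354M anti-GATA2 peaks of 41 and 36 fragments in replicates 3 and 4, against 64, 64, 71 and 85 with HA-GATA2, and wild-type cells had 35, 26, 56 and 44. Its anti-HA peaks held 21, 37 and 24 fragments in HA-GATA2 replicates 1 to 3. The members at FECH, BLVRB and ALAS2 had no anti-HA peak with either protein. The member counted for ALAS2 lies 9005 bp from that gene and overlaps a start window of another gene, APEX2. With HA-T354M no member of this list had an anti-HA peak.

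Of 36 genes of the red cell membrane and iron uptake 2 had a member, EPB42 and SLC11A2. Neither had an HA-T354M peak with either antibody. EPB42, red cell protein 4.2, held a member (chr15:43219137-43219646) with 43, 46, 53 and 55 anti-GATA2 fragments and 17, 21 and 21 anti-HA fragments (replicates 1 to 3) with HA-GATA2, against 28, 28, 33 and 33 in wild-type cells. At SLC11A2, an iron transporter gene, the HA-GATA2 anti-HA peak stood in 1 library, with 15 fragments. Of 31 haematopoietic transcription factor genes 1 had a member, ID2, an inhibitor of basic helix-loop-helix factors.

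Of 32 genes of cytokine receptors and signalling 5 (15.6%) had a member: the kinases LYN and PIM1, the receptors IL6ST and CSF1R, and SMAD3, a transducer of TGF-beta signals. LYN, CSF1R and SMAD3 had an HA-GATA2 anti-HA peak in 1 library each and PIM1 and IL6ST in none. Among megakaryocyte genes MYH9 had a member (1 of 26), and among lymphocyte genes CD4 (1 of 25). The member in CD4 (chr12:6794828-6795887) had no HA-T354M peak, and 10, 15 and 11 anti-HA fragments in HA-GATA2 replicates 1 to 3. The lists of mast cell, basophil and eosinophil genes (26), neutrophil and monocyte genes (26) and housekeeping genes (24) had none. The lists differ in how many genes had any site with 4 of 4 wild-type peaks, from 4% for lymphocytes to 75% for membrane and iron genes, and no list was tested.

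Of the members inside genes or at their ends, 259 lay within 252 protein-coding genes. BCOR, CAST, CCND3, LRRC8D, PDE12, SGMS1 and ST3GAL1 held 2 members each. CCND3 encodes cyclin D3 and BCOR a corepressor of BCL6. Members were thus spread over the genome mostly 1 to a gene.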

How the data were processed

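CUT&Tag peak lists of 28 libraries (7 groups of 4) were used, and 8 IgG libraries were not used here. The submitters' processing notes name MACS2 2.2.7.1, deepTools 3.5.3, Bowtie2 2.2.5, cutadapt 3.3, FastQC and the build hg38, and the settings were not given in the sources used here. Each library has its own deposited list, with a fold enrichment as a linear ratio, p and q as −log10 values (lowest −log10 q 6.00) and a score. These values are the authors' and served to rank, filter and recover fragments.

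Of 120964 peaks, 455 off chromosomes 1 to 22 and X were left out. Overlapping peaks (1 bp) formed sites. Fragments at a summit were solved from the fold and the −log10 p of the authors, matched within 0.03%. They carry counting error, and no read totals were used. A library's percentile of a site is the rank of its strongest peak by −log10 q.

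Sites were compared with Fisher's exact test, where 4 of 4 against 0 of 4 gives the smallest p, 0.0286. The Benjamini-Hochberg adjustment ran over sites with a peak in exactly 4 of 8 libraries, which alone could pass, so a call depends on how many of these split 4 to 0. Adjusting over all sites that had any peak, other −log10 q minimums, lists of equal length, stricter T354M limits, trimmed peaks, a replicate block and leaving out each library were tried. Members and lists were chosen with earlier results of these data known. Named sites are up to 4 genes per list, the 10 highest in wild type, the 10 with the largest anti-HA difference, those with an HA-T354M anti-HA peak, and start windows with a GATA element; 1 item that this rule covers is not reported here. Gene positions came from a RefSeq table of GRCh38.p14, the hg38 assembly, with no strand or exons, so exon and intron were not analysed here. Coordinates are 1-based. Scripts ran on Python 3.11.15 with numpy 2.4.6, scipy 1.17.1, pandas 2.3.3 and matplotlib 3.10.9 and were tested on simulated data.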

Additional observations from a re-analysis of the deposited data

Results flagged for a closer look

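Replicate 1 of the HA-GATA2 anti-GATA2 libraries stood apart from the other 3 in both measures taken at the members. It had a peak at 71.1% of them, against 97.8% to 99.5% in the other 3, and its median member peak held 38 fragments, against 49 to 50. Over all 17277 sites it also had the lowest share of its group, 40.3% against 62.9% to 69.9%, so the low share is not particular to the members. The rule used these libraries, so the values are a description. The estimated depth of replicate 1, 0.427, was the lowest of its group, where the highest was 0.434. Without this library 524 of the 546 members met the rule with all 3 others required. In all 10 groups of 4 values were checked for such a far value, of which chance marks about 1 in 20. The wild-type, GATA2-low empty-vector anti-GATA2 and empty-vector anti-HA shares did not vary between libraries, so these could not be flagged.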

How the results depend on the processing

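The number of members followed the rule and the lists: 343 sites with at most 1 HA-T354M library, 167 with 0, and 352 to 744 when 1 library was left out (without HA-T354M anti-GATA2 replicate 2 and without wild-type replicate 2). Leaving out a library also moved the limits, to 1 of 3 HA-T354M, 3 of 3 HA-GATA2 or 3 of 3 wild-type libraries; the fall to 352 comes from the tightened HA-T354M limit. With lists of equal length 9 sites met the rule, with an HA-T354M anti-HA peak at 0% and an HA-GATA2 one at 5.56%, a difference of 5.56 percentage points, and 0 called against HA-T354M or the empty vector. Few of the 546 members could keep 4 of 4 wild-type peaks under that cut. Leaving out single libraries gave 0.203% to 0.44% of members with an HA-T354M anti-HA peak, 27.2% to 40.8% with HA-GATA2, and a difference of 26.9 to 40.5 points. Members called ran from 0 to 118 for HA-GATA2 against HA-T354M and from 0 to 123 against the empty vector: 0 without any 1 HA-T354M or any 1 empty-vector anti-HA library, the highest without HA-GATA2 anti-HA replicate 4, and 20 and 14 (against HA-T354M) or 22 and 16 (against the empty vector) without HA-T354M anti-GATA2 replicate 1 or 2, under the same tightened limit. With a −log10 q of at least 10, 25 members were called against the empty vector. Adjusting over every site with a peak gave 0 and 0. HA-T354M against the empty vector had 0 called members in every setting run, but 0 members could pass in the main setting. Leaving out an anti-HA library also changed the test. Its adjustment then ran over sites with a peak in 3 or in 4 libraries. Where the library was an HA-GATA2 one, 3 of 3 sufficed for a call. Beyond this, where a call ended the cause was not tested. Percent of members at a gene end and their wild-type rank were 22.3% to 25.7% and 39.5 to 44.7 over single libraries left out. At a −log10 q of at least 10 the wild-type rank was 48.8, at 15 it was 58.6 with 19% at a gene end, and with lists of equal length these were 84.5 and 0%.

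Same-numbered HA-T354M and HA-GATA2 anti-HA libraries deviated together with correlations of -0.0251, 0.0206, -0.0583 and 0.117 over 6944 sites, so the numbers were not taken to pair them. A replicate block (sign flips within a number) has a smallest p of 0.125 and gave 0 and 0 called members. Peaks trimmed around the summit left 527 of the 546 members, and a −log10 q of at least 10 left 380. Short lists, low depth in the empty-vector libraries and all-or-nothing peak calls limit what absence of a peak shows.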
